A study of Mus musculus with 14 samples.

Results

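The 8 genes described here are transcripts of B cells and of the antibody-secreting plasma cells that B cells become. They are Igkc, Igha, Ighm, Jchain, Mzb1, Cd79a, Cd79b and Ms4a1. They were chosen by name as markers of these cells and are 8 of the 49315 genes in the count table. A filter on low counts kept 15292 genes for testing, which included 7 of the 8 and left out Ms4a1.

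RNA was sequenced from left ventricular tissue of male mice that had undergone transverse aortic constriction (TAC), a surgical narrowing of the aorta that loads the left ventricle with pressure, or a Sham operation. The mice were wild type (WT) or carried HCN4F, a knock-in of the pacemaker channel gene Hcn4 in which a tyrosine is replaced by phenylalanine, an exchange present in every cell that expresses the channel. The libraries analysed were 4 of WT-Sham, 2 of WT-TAC, 4 of HCN4F-Sham and 4 of HCN4F-TAC, with 22309914 to 35210939 counted reads each. The mice were operated on as young adults and the hearts were taken some weeks later, and strain background and zygosity are not given in the sources used here. The WT-TAC libraries carry replicate numbers 2 and 3, and other WT-TAC libraries were not analysed here. The number in each library's title was higher in the 4 WT-Sham libraries than in any of the others. What that number stands for is not stated, and it cannot be told apart from the WT-Sham group.

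A B cell carries an antibody on its surface as its antigen receptor, and the chains encoded by Cd79a and Cd79b pass the receptor's signal into the cell. Ms4a1 encodes CD20, a surface protein of B cells that is lost when they mature into plasma cells. A plasma cell devotes most of its messenger RNA to secreted antibody, so a few plasma cells can dominate the immunoglobulin RNA of a tissue. Igkc encodes the constant part of the kappa light chain, Ighm and Igha the constant parts of the heavy chains of IgM and IgA, and Jchain the joining chain that links IgA into dimers and IgM into pentamers. Mzb1 encodes a chaperone of the endoplasmic reticulum that helps antibody chains to assemble.

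The upstream sequences of Jchain and Cd79a are shown because Jchain varied together with the immunoglobulin genes and Cd79a was the gene called after TAC in HCN4F hearts. They were taken from RefSeq (GRCm38.p6), which gave a start site for 2 of the 8 genes in the table used. The window searched was the 250 bases before that start, and the printed run ends before the gene model of GENCODE M21 begins, which for Cd79a lies 116 bases ahead of the RefSeq start. Capitals mark E-boxes (letters CANNTG), the kind of site that E proteins of the B lineage bind.
Jchain upstream, chr5:88527898-88528147, minus strand: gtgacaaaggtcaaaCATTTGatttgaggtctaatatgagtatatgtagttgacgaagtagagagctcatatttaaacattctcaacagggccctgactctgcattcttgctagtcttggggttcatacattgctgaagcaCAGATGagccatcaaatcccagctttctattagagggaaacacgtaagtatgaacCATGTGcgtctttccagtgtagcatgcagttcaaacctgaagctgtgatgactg
Cd79a upstream, chr7:24897247-24897380, plus strand: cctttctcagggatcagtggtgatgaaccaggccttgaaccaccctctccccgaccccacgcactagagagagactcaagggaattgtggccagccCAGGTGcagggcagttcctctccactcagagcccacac
The 250-base window of Jchain held 3 E-boxes and that of Cd79a held 2, of which 1 lies within the printed run. At least 1 E-box was found in 66.2% of 32851 mouse windows of the same length. The Cd79a window also held 1 ETS site (letters GGAAGT, on either strand), as did 19.7% of all windows. Neither window held the immunoglobulin octamer (letters ATGCAAAT, in 1.6% of all windows) or the EBF half-site pair (letters CCCNNGGG, in 11.8%). These are matches of letters on both strands and carry no information on binding in these hearts.

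Levels are given as CPM, read counts relative to a library's total, scaled between libraries by the trimmed mean of M values. Igha was the most abundant of the 8 genes at a mean of 10.7 CPM over the 14 libraries, followed by Igkc at 5.11, Ighm at 3.75, Jchain at 1.44, Mzb1 at 1.27, Cd79a at 0.83, Cd79b at 0.498 and Ms4a1 at 0.171 CPM. Divided by exon length, the order changed, and in WT-Sham hearts Igkc was highest at 2.92 CPM per kilobase, ahead of Ighm at 1.49, Mzb1 at 1.10 and Igha at 0.773 CPM per kilobase. In HCN4F-TAC hearts Igkc reached 15.1 and Igha 6.49 CPM per kilobase, while Ighm stood at 2.45. All of these levels are low, since 3 counts in a library correspond to 0.0859 to 0.137 CPM. In ventricular tissue, more cells of a type and more RNA per cell cannot be told apart.

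Igha (ENSMUSG00000095079, chr12:113254830-113260236, minus strand, GRCm38) was low in WT-Sham hearts and higher in every other library. The 4 WT-Sham libraries held 2.11, 2.50, 1.91 and 1.73 CPM, from 50 to 69 counts. WT-TAC replicates 2 and 3 held 5.22 and 19.1 CPM. The 4 HCN4F-Sham libraries held 12.4, 19.8, 9.91 and 6.28 CPM, and the 4 HCN4F-TAC libraries 10.5, 31.9, 8.23 and 18.7 CPM. Thus no library of the other 3 groups overlapped the WT-Sham range, whereas those 3 groups overlapped one another. The group means were 2.06 ± 0.331 CPM (SD, n = 4) in WT-Sham, 12.1 ± 9.79 (SD, n = 2) in WT-TAC, 12.1 ± 5.72 (SD, n = 4) in HCN4F-Sham and 17.3 ± 10.7 (SD, n = 4) in HCN4F-TAC.

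Igkc (ENSMUSG00000076609, chr6:70726435-70726966, plus strand) was likewise lowest in WT-Sham and highest in HCN4F-TAC on average, at a lower level than Igha. WT-Sham libraries held 1.29, 2.03, 1.03 and 1.86 CPM, and the WT-TAC libraries 3.00 and 7.87 CPM. HCN4F-Sham libraries held 4.67, 10.6, 4.38 and 2.84 CPM, and HCN4F-TAC libraries 4.31, 13.9, 3.53 and 10.3 CPM. Again the lowest value outside WT-Sham, 2.84 CPM, exceeded the highest WT-Sham value, 2.03 CPM. The group means were 1.56 ± 0.470 CPM (SD, n = 4), 5.44 ± 3.45 (SD, n = 2), 5.62 ± 3.41 (SD, n = 4) and 8.01 ± 4.95 (SD, n = 4) in WT-Sham, WT-TAC, HCN4F-Sham and HCN4F-TAC.

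Jchain (ENSMUSG00000067149, chr5:88519809-88527891, minus strand) was counted 6 to 19 times in the WT-Sham libraries, which held 0.407, 0.508, 0.229 and 0.621 CPM. The WT-TAC libraries were far apart at 0.370 and 2.20 CPM, and the lower of them lay within the WT-Sham range. HCN4F-Sham libraries held 1.43, 2.97, 1.09 and 1.18 CPM, all above WT-Sham. HCN4F-TAC libraries held 1.45, 3.72, 1.13 and 2.81 CPM and overlapped HCN4F-Sham.

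Ighm (ENSMUSG00000076617, chr12:113418558-113422730, minus strand) differed less between groups. WT-Sham libraries held 2.66, 2.54, 2.03 and 4.02 CPM, WT-TAC 1.85 and 4.27, HCN4F-Sham 2.67, 5.34, 5.10 and 3.56, and HCN4F-TAC 3.69, 5.10, 5.33 and 4.35 CPM. All 4 groups overlapped. The means ran from 2.81 ± 0.850 CPM in WT-Sham (SD, n = 4) to 4.62 ± 0.748 CPM in HCN4F-TAC (SD, n = 4).

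Mzb1 (ENSMUSG00000024353) did not follow the antibody genes. WT-Sham libraries held 1.15, 1.38, 1.53 and 1.31 CPM, WT-TAC 0.781 and 1.46, HCN4F-Sham 1.43, 1.69, 0.976 and 1.72, and HCN4F-TAC 1.16, 0.922, 1.27 and 0.976 CPM. All groups overlapped, and the HCN4F-TAC mean of 1.08 ± 0.162 CPM (SD, n = 4) was the lowest. In GENCODE M21, 57.2% of the exonic bases of Mzb1 are shared with a gene on the same strand whose identifier has no row in the count table. The share of these reads that comes from Mzb1 itself is therefore uncertain.

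Cd79a (ENSMUSG00000003379, chr7:24897381-24902197, plus strand) had its highest levels in HCN4F-TAC hearts. WT-Sham libraries held 0.333, 0.834, 0.382 and 0.490 CPM, WT-TAC 0.534 and 0.773, and HCN4F-Sham 0.565, 0.822, 0.542 and 0.272 CPM. HCN4F-TAC libraries held 1.33, 1.88, 0.989 and 1.87 CPM, each above every other library. These values rest on 9 to 57 counts a library.

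Cd79b (ENSMUSG00000040592, chr11:106311341-106314762, minus strand) reached its highest values in 2 of the 4 HCN4F-TAC libraries. They held 0.373, 0.922, 0.424 and 1.14 CPM, against 0.444, 0.435, 0.497 and 0.327 in WT-Sham, 0.247 and 0.487 in WT-TAC, and 0.565, 0.456, 0.289 and 0.362 in HCN4F-Sham. The other 2 HCN4F-TAC libraries lay within the range of the Sham hearts.

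Ms4a1 (ENSMUSG00000024673, chr19:11249675-11266241, minus strand) was counted 1 to 10 times a library. Its levels were 0.0739, 0.218, 0.153 and 0.131 CPM in WT-Sham, 0.205 and 0.0859 in WT-TAC, 0.0376, 0.0913, 0.0723 and 0.181 in HCN4F-Sham, and 0.207, 0.329, 0.318 and 0.285 CPM in HCN4F-TAC. The HCN4F-TAC libraries lay above the HCN4F-Sham libraries, but at counts this low neighbouring libraries differ by single reads.

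**Figure D1:**
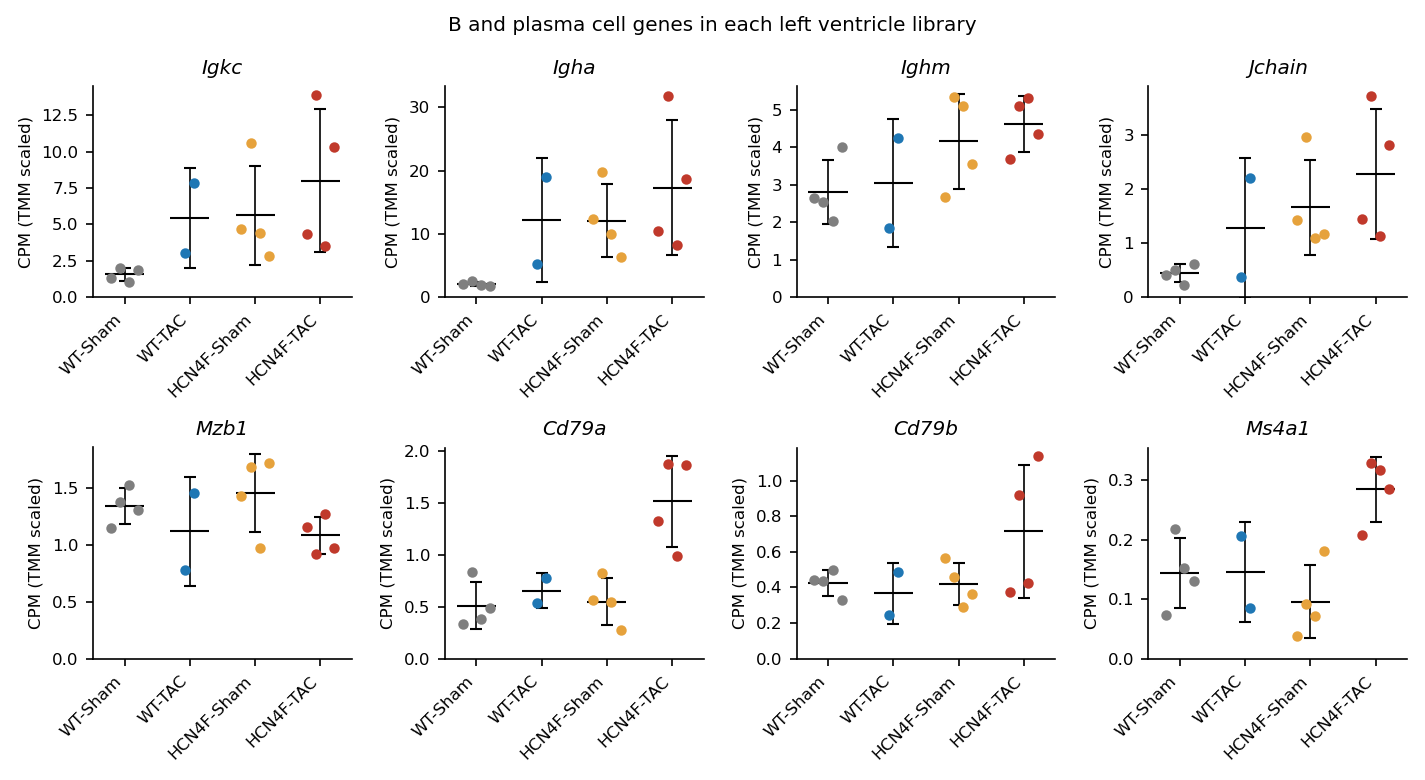
Level of each of the 8 genes in CPM (linear vertical axis from 0) by group, with 1 point for each library and the mean and SD as bars. For Igha and Igkc every point outside WT-Sham lies above the 4 WT-Sham points, whereas for Cd79a the 4 HCN4F-TAC points, 0.989 to 1.88 CPM, lie above all others.

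TAC was first compared with Sham in WT hearts. Igha rose 5.98-fold (log2 fold change 2.58, SE 0.65, adjusted p = 0.0489 by the quasi-likelihood test of edgeR, adjusted after Benjamini and Hochberg across the 15292 genes). It was the only 1 of the 7 tested genes to be called higher, a call being an adjusted p under 0.05 and a log2 fold change beyond 1, and 0.445% of all tested genes were called higher in this comparison. Igkc had a log2 fold change of 1.82 (SE 0.67, adjusted p = 0.143) and Jchain of 1.59 (SE 0.68, adjusted p = 0.192). The log2 fold changes of Cd79a, Ighm, Cd79b and Mzb1 were 0.38, 0.15, -0.15 and -0.22, with adjusted p from 0.650 to 0.887. The 2 WT-TAC hearts did not overlap with WT-Sham, on the higher side, for Igha and Igkc, as for 19.2% of all tested genes.

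The call for Igha was close to the threshold and rested on both WT-TAC hearts. Without WT-TAC replicate 3 its log2 fold change was 1.34 (adjusted p = 0.520), and without replicate 2 it was 3.21 (adjusted p = 0.0546), by the same edgeR test. The call was also lost when any 1 of the 4 WT-Sham libraries was left out (adjusted p from 0.0677 to 0.126, log2 fold change from 2.50 to 2.68), and without HCN4F-Sham replicate 1 or 3 or HCN4F-TAC replicate 1 or 4 (0.0503 to 0.0635). It was lost as well with the replicate block (log2 fold change 2.50, adjusted p = 0.144) and without the filter on low counts (adjusted p = 0.0812). Over all alternative settings the log2 fold change stayed between 1.34 and 3.21.

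TAC was next compared with Sham in HCN4F hearts. Cd79a rose 2.83-fold (log2 fold change 1.5, SE 0.33, adjusted p = 0.00699 by edgeR's quasi-likelihood test) and was the 1 gene of 7 called higher, against 1.58% of all tested genes. Its partner chain Cd79b had a log2 fold change of 0.78 (SE 0.37, adjusted p = 0.174). The secreted antibody genes had log2 fold changes of 0.54 for Igkc, 0.54 for Igha, 0.49 for Jchain and 0.16 for Ighm, with adjusted p from 0.517 to 0.734, and Mzb1 had -0.42 (adjusted p = 0.245). Of the 7 tested genes Cd79a alone had groups that did not overlap, a pattern seen on the higher side in 7.95% of tested genes. For Ms4a1, which the filter had removed, a fit without the filter gave a log2 fold change of 1.5 (SE 0.57, adjusted p = 0.102 over 29814 genes).

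The Cd79a call held in each of 21 alternative fits, with log2 fold changes from 1.25 to 1.74 and adjusted p up to 0.0269. HCN4F-TAC replicate 2, with the highest Cd79a value, also had the highest sum over the 5 genes of the atrial list. The sum was 55.3 CPM, of which Dkk3 held 24.2 CPM, against 6.32 to 18.4 CPM in the other HCN4F-TAC hearts. Whether this RNA came from atrial tissue was not tested. Without HCN4F-TAC replicate 2 the log2 fold change of Cd79a was 1.37 (adjusted p = 0.0269 by edgeR).

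HCN4F was compared with WT among Sham hearts, which had no pressure overload. Igha had the largest difference of the 7 genes, with a log2 fold change of 2.54 (SE 0.58, adjusted p = 0.0869 by edgeR's quasi-likelihood test), followed by Jchain at 1.86 (SE 0.59, adjusted p = 0.162) and Igkc at 1.81 (SE 0.59, adjusted p = 0.189). None of the 7 was called, and 0.0850% of all tested genes were called higher. Igha, Igkc and Jchain had non-overlapping groups, higher in HCN4F, as did 3.89% of all tested genes. All 3 had an unadjusted p under 0.05, as did 15.2% of all tested genes in either direction. DESeq2, the tool that the study used, called all 3, with adjusted p of 0.000234 for Igha, 0.0126 for Jchain and 0.0382 for Igkc when fitted on all groups, a fit in which 0.222% of all genes were called higher. Ighm had a log2 fold change of 0.55 (adjusted p = 0.353 by edgeR), and Mzb1, Cd79a and Cd79b lay at 0.12, 0.06 and -0.03.

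This comparison and that of TAC with Sham in WT hearts share the 4 WT-Sham libraries, in which the antibody genes were lowest. For Igha the 2 log2 fold changes were 2.54 and 2.58, for Igkc 1.81 and 1.82, and for Jchain 1.86 and 1.59. Because the libraries are shared, the values are not independent of each other. The WT-Sham libraries also had the highest title numbers, and what those numbers stand for cannot be told apart from genotype or TAC in these comparisons. After TAC in WT the value of Igkc was 0.94 (adjusted p = 0.717 by edgeR) without WT-TAC replicate 3 and 2.33 without replicate 2, and that of Jchain -0.27 and 2.29.

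Between HCN4F and WT hearts after TAC, Cd79a had a log2 fold change of 1.18 (SE 0.40, adjusted p = 0.235 by edgeR's quasi-likelihood test) and groups that did not overlap, as for 11.3% of tested genes on the higher side. Cd79b had 0.90 (SE 0.46, adjusted p = 0.430). Jchain, Ighm, Igkc and Igha lay between 0.49 and 0.76 and Mzb1 at -0.08. The order of the genes depended on the 2 WT-TAC hearts, since without WT-TAC replicate 3 the log2 fold changes of Jchain, Igha and Cd79a were 2.62, 1.73 and 1.5, and without replicate 2 they were 0.05, -0.14 and 0.97. None of the 7 genes was called, at 0.0392% called higher among all genes. DESeq2 called none of them, with 0.471% of all genes called higher, and in edgeR 1 gene, Cd79a, had an unadjusted p under 0.05, against 12.5% of all genes in either direction.

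Whether the response to TAC differed between genotypes was tested by the interaction of genotype and surgery. It passed for none of the 7 genes by edgeR's quasi-likelihood test, nor by DESeq2 for the 5 to which it gave an adjusted p (Cd79a and Cd79b had none), with 0% of all tested genes at an adjusted p under 0.05 in edgeR and 0.325% in DESeq2. The interaction of Igha was -2.04 on the log2 scale (SE 0.83, adjusted p = 0.491), and it was the 1 gene with an unadjusted p under 0.05, against 9.27% of all genes. Without WT-TAC replicate 3 it was -0.80, and without replicate 2 it was -2.67. Cd79a had 1.12 (SE 0.55, adjusted p = 0.549) and Cd79b 0.94 (SE 0.61, adjusted p = 0.665). A response called in 1 genotype alone is therefore not shown to differ between genotypes.

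**Figure D2:**
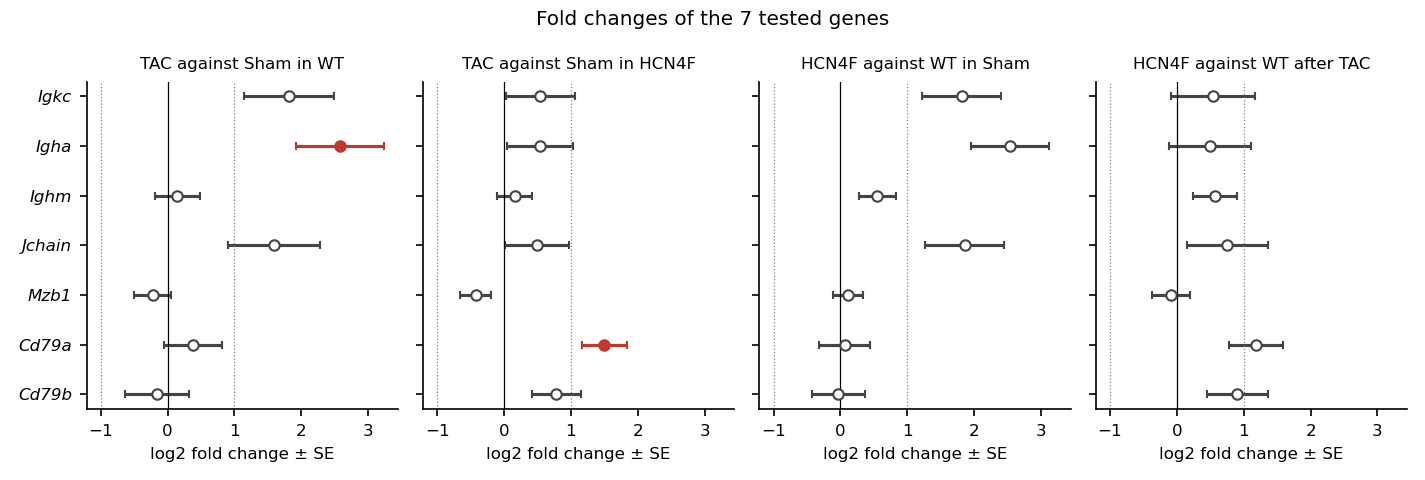
Log2 fold change of the 7 tested genes in the 4 comparisons (horizontal axis, with SE as bars), where filled red points are called, dotted lines mark a log2 fold change of 1 in either direction and open points are not called. The called points are Igha at 2.58 in WT after TAC and Cd79a at 1.5 in HCN4F after TAC.

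Igkc, Igha and Jchain varied together from heart to heart. Over the 14 libraries the log2 CPM of Igkc had a Pearson correlation of 0.965 with Igha and 0.949 with Jchain, 0.736 with Cd79a, 0.67 with Ighm, 0.538 with Cd79b and -0.193 with Mzb1. Cd79a had 0.681 with Jchain, 0.667 with Igha and 0.64 with its partner Cd79b. These are descriptions over libraries of 4 groups, so that differences between groups enter them, and the libraries share their scaling. Within groups, single hearts led several genes at once. WT-TAC replicate 3 was higher than replicate 2 for 7 of the 8 genes. HCN4F-Sham replicate 2 had the highest Igha, Igkc, Jchain, Ighm and Cd79a of its group, and HCN4F-TAC replicate 2 the highest Igha, Igkc, Jchain, Cd79a and Ms4a1.

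Antibody RNA also carries a variable segment, which differs between B cell clones. The table held 185 heavy chain (Ighv), 160 kappa (Igkv) and 3 lambda (Iglv) variable segments, of which 2, 4 and 1 passed the filter. Summed Ighv counts gave 0.511 ± 0.170 CPM in WT-Sham (SD, n = 4), 2.55 ± 1.69 in WT-TAC (SD, n = 2), 1.96 ± 0.604 in HCN4F-Sham (SD, n = 4) and 3.58 ± 1.93 in HCN4F-TAC (SD, n = 4). The WT-Sham libraries ran from 0.382 to 0.762 CPM, below all others, which began at 1.36 CPM. Summed Igkv counts gave 0.906 ± 0.279 CPM in WT-Sham (SD, n = 4), 3.67 ± 3.10 in WT-TAC (SD, n = 2), 3.53 ± 1.72 in HCN4F-Sham (SD, n = 4) and 5.16 ± 2.24 in HCN4F-TAC (SD, n = 4). Here too the WT-Sham maximum of 1.23 CPM lay below the lowest other library at 1.48 CPM. The segments thus had the same order of WT-Sham and the rest as Igha and Igkc, counted from other stretches of the same transcripts.

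The variable counts were spread over many segments. WT-Sham hearts had counts on 6 to 14 Ighv and 10 to 19 Igkv segments, and the other hearts on 20 to 56 Ighv and 23 to 64 Igkv segments. Much of that difference goes with the number of counts, and at a matched depth of 10 Ighv counts the expected number of segments was 6.0 to 8.18 in WT-Sham and 8.15 to 9.08 elsewhere. At 15 Igkv counts it was 9.87 to 11.4 in WT-Sham and 10.8 to 12.7 elsewhere. The most counted Ighv segment took 6.99 to 17.3% of a library's Ighv counts outside WT-Sham, and 19.1 to 33.3% in WT-Sham, where the totals were 10 to 21 counts. Over all libraries the leading heavy segments were Ighv9-3, Ighv1-26 and Ighv14-2 with 46, 40 and 39 counts. The leading kappa segments were Igkv6-23, Igkv10-96 and Igkv6-15 with 76, 68 and 66 counts. In WT-TAC replicate 3 they were counted 25, 22 and 18 times among 205 Igkv counts, and in WT-TAC replicate 2 they were counted 0, 0 and 1 times. Among the lambda segments Iglv1 held 75.9% of the counts, ahead of Iglv3 and Iglv2. Variable segments are alike in sequence, and how reads that match several of them were counted is not given, so counts of single segments are uncertain.

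**Figure D3:**
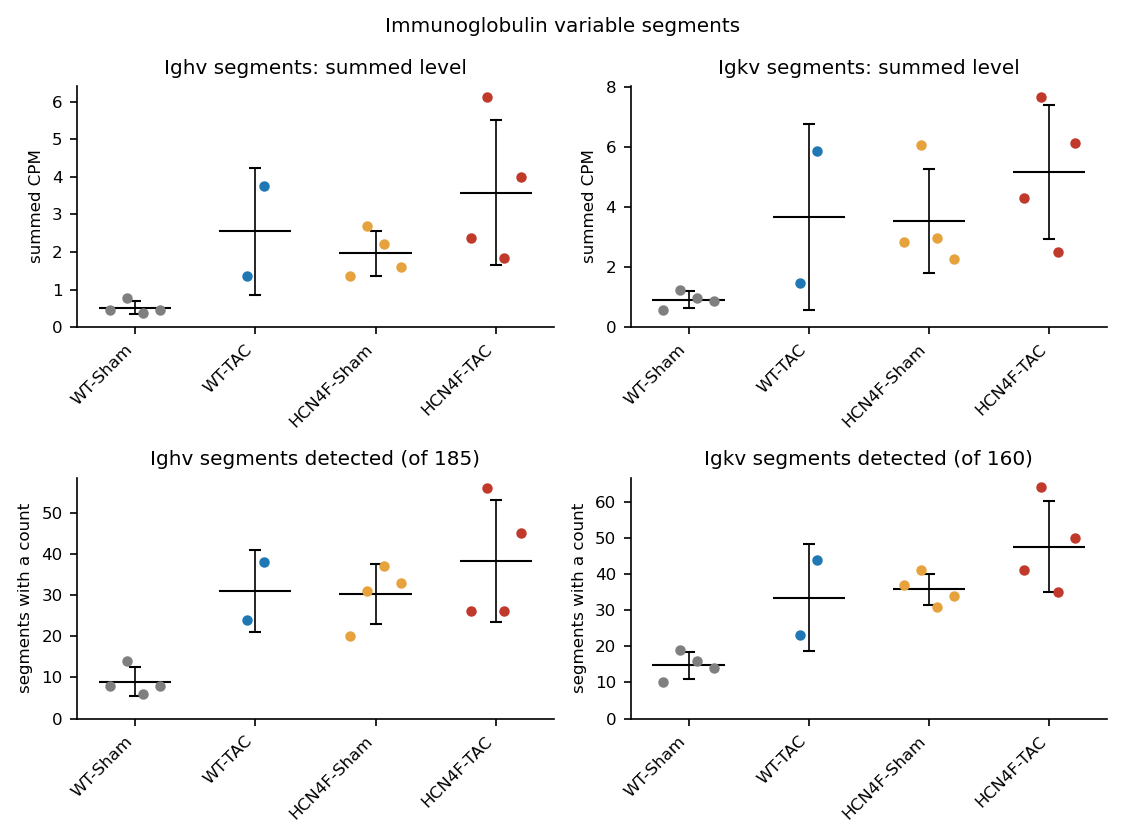
Summed level in CPM (top row) and number of segments with at least 1 count (bottom row) of the heavy chain (Ighv, left) and kappa (Igkv, right) variable segments by group, with 1 point for each library and the mean and SD as bars. The WT-Sham points, 0.382 to 0.762 CPM for Ighv and 0.554 to 1.23 CPM for Igkv, lie below those of all other libraries.

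The antibody classes were mixed differently in WT-Sham hearts than in the others. Igha took 33.5, 38.3, 35 and 22.8% of the counts on heavy chain constant genes in the 4 WT-Sham hearts, where the exact (Clopper-Pearson) 95% intervals together spanned 17.6 to 45.9%. It took 53.4 and 76.1% in the WT-TAC hearts, 71.1, 71.3, 55.8 and 50.4% in HCN4F-Sham and 65.3, 78.5, 51.4 and 69.9% in HCN4F-TAC. No heart outside WT-Sham came under 50.4%, but the interval of that heart, HCN4F-Sham replicate 4, began at 45.4% and met that of WT-Sham replicate 2, which ended at 45.9%. Ighm, the IgM chain, took 37.1 to 53.0% in WT-Sham and 12.6 to 33.3% elsewhere. The IgG genes took 17.2 to 25.2% in WT-Sham and 4.23 to 23.9% elsewhere. Ighg2c was the most counted IgG gene in each library but WT-TAC replicate 3, where Ighg2b had 29 counts and Ighg2c 7. These intervals cover counting error only. Ighg2c held 0.943 to 1.38 CPM in WT-Sham and 1.92 to 2.35 CPM in HCN4F-Sham, without overlap, but its log2 fold change of 0.86 missed the threshold (adjusted p = 0.352 by edgeR). Ighe, the IgE chain, had 0 counts in all 14 libraries, which allows up to 0.0859 to 0.137 CPM a library. The kappa chain made up 77.1 to 99.2% of light chain constant counts, and the groups overlapped.

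**Figure D4:**
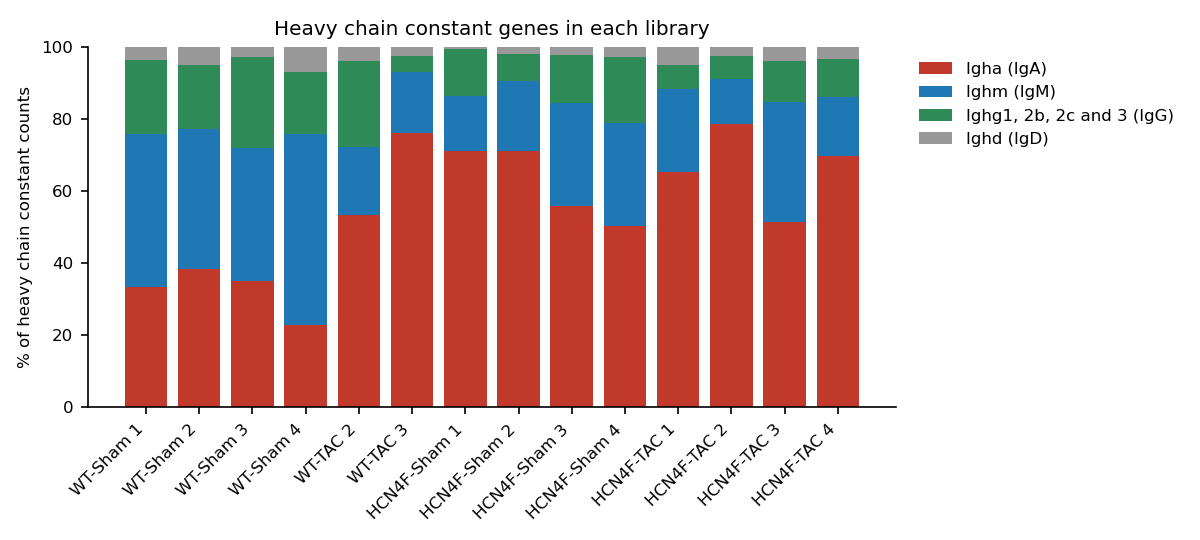
Share of Igha, Ighm, the IgG genes and Ighd in the counts on heavy chain constant genes, as stacked bars from 0 to 100%, with 1 bar for each library, named by group and replicate number. Igha takes 22.8 to 38.3% in the WT-Sham libraries and 50.4 to 78.5% in the others.

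Of the wider B cell and plasma cell lists, 1 gene was called in HCN4F hearts after TAC, where 2.75% of all tested genes were called in either direction, and none in the other comparisons. Of 14 further immunoglobulin constant and surrogate genes 3 were tested, and Ighd, the constant chain of the IgD that naive B cells display, rose after TAC in HCN4F hearts (log2 fold change 1.26, SE 0.38, adjusted p = 0.0355 by edgeR). Its levels were 0.113 to 0.502 CPM in HCN4F-Sham and 0.636 to 0.988 CPM in HCN4F-TAC. This call was lost without HCN4F-Sham replicate 1 or 4 or HCN4F-TAC replicate 1, 2 or 4, with log2 fold changes from 0.97 to 1.45 and adjusted p up to 0.102 by edgeR. Of 28 B cell surface and receptor signalling genes 22 were tested and none was called in any of the 4 comparisons, and their median log2 fold change after TAC was 0.07 in WT and 0.34 in HCN4F, against -0.02 and -0.01 over all genes. Plcg2, Cd72 and Syk had an adjusted p under 0.05 by edgeR after TAC in HCN4F, but log2 fold changes of 0.80, 0.83 and 0.54, short of a call. Plcg2 also did after TAC in WT, at 0.49 (adjusted p = 0.0446 by edgeR). All 12 B cell transcription factors were tested and none was called. Irf8 had an adjusted p of 0.021 by edgeR after TAC in HCN4F, at a log2 fold change of 0.51. Pax5, which fixes B cell identity, had a log2 fold change of 1.17 after TAC in HCN4F (adjusted p = 0.117 by edgeR).

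Of 23 plasma cell genes 18 were tested and none was called. Their median log2 fold change was -0.14 after TAC in WT, 0.13 after TAC in HCN4F and -0.08 between genotypes in Sham hearts. Ell2, Txndc5 and Edem1 had an adjusted p under 0.05 by edgeR after TAC in HCN4F, at log2 fold changes of 0.94, 0.31 and 0.28. Prdm1, the transcription factor that starts plasma cell formation, held 1.92 to 3.40 CPM in WT-Sham and 0.527 to 1.63 CPM in HCN4F-Sham (log2 fold change -0.96, adjusted p = 0.287 by edgeR), the opposite order to Igha. Tnfrsf17, the plasma cell receptor BCMA, had at most 3 counts in any library, and Derl3, of the protein quality control of secretory cells, 1 to 9. Several genes of this list, such as Xbp1 and Hsp90b1, serve protein folding in most cells and are not specific to plasma cells. Of 17 attractants and survival factors of B and plasma cells 7 were tested, and of 9 immunoglobulin transport and Fc receptor genes 7, and none was called. Tgfb1, Cxcl12 and Fcgrt had an adjusted p under 0.05 by edgeR after TAC in HCN4F, at log2 fold changes of 0.38, -0.60 and -0.26. Pigr, which carries IgA across epithelia, had at most 3 counts in any library.

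Markers of other cells were set beside these results. The neutrophil list summed to 0.803 to 2.21 CPM in WT-Sham, 3.18 to 4.97 in WT-TAC, 2.83 to 4.34 in HCN4F-Sham and 2.32 to 7.03 in HCN4F-TAC, so that WT-Sham was again lowest without overlap. Of its 6 tested genes 2 rose after TAC in WT, the calprotectin genes S100a8 (log2 fold change 2.73, adjusted p = 0.0248 by edgeR) and S100a9 (2.91, adjusted p = 0.0409), while Ly6g was at 0 in every library. Both calls were lost without either WT-TAC library and without WT-Sham replicate 1 or 4, and that of S100a9 also without WT-Sham replicate 3 or replicate 4 of either HCN4F group. The replicate block lost both calls too, and the fit without the filter that of S100a9. DESeq2 gave neither gene an adjusted p, and over all other alternatives the adjusted p reached 0.156 for S100a8 and 0.213 for S100a9. Both kept their direction, with log2 fold changes of at least 2.36 and 2.51. The part of neutrophils or blood in the Igha values was not tested. Red blood cell markers summed to 101 to 222 CPM in WT-Sham and 70.9 to 366 CPM elsewhere and did not set WT-Sham apart, and T cell markers summed to 4.78 to 7.40 CPM over all hearts.

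Beside Cd79a, Ccr7, which guides lymphocytes to lymph nodes, rose after TAC in HCN4F hearts (log2 fold change 1.68, adjusted p = 0.00658 by edgeR). It had 7 to 12 counts in the HCN4F-TAC libraries, 2 to 4 in HCN4F-Sham and 2 to 5 in the WT groups. Only HCN4F-TAC libraries reached the filter's level of about 0.361 CPM, so Ccr7 was tested only through the group where it was high. Its call is therefore given as a description only. The thymus and lymph node list, with 9 of 10 genes in the table, summed to 0.259 to 0.508 CPM in WT-Sham, 0.698 to 0.773 in WT-TAC, 0.423 to 0.776 in HCN4F-Sham and 0.912 to 1.79 in HCN4F-TAC, and Rag1 and Glycam1 were at 0 throughout. The atrial list summed to 3.46 to 7.61 CPM in HCN4F-Sham and 6.32 to 55.3 CPM in HCN4F-TAC, and 1 of its 3 tested genes, Dkk3, was called (2.09, adjusted p = 0.00993 by edgeR). Cardiac muscle markers summed to 64150 to 68510 CPM in HCN4F-Sham and 54220 to 61080 CPM in HCN4F-TAC. Mitochondrial transcripts took 17.1 to 21.4% of counts in HCN4F-Sham and 17.3, 13.9, 18.6 and 16.8% in HCN4F-TAC replicates 1 to 4, lowest in the heart with the most Cd79a and highest in that with the least. The part of this in the Cd79a values was not tested. The fat cell gene Cfd fell in this comparison (-2.61, adjusted p = 0.0483 by edgeR), a call lost in 8 of 19 alternatives (adjusted p up to 0.131), among them each fit that left out WT-Sham replicate 1 or 3, HCN4F-Sham replicate 3 or 4, or HCN4F-TAC replicate 1, 2 or 4. The call of Dkk3 held in all 22 alternatives, and that of Ccr7, at 2 to 12 counts a library, in the 19 that gave it an adjusted p. Airway and lung markers stayed at or under 0.332 CPM, with Sftpc, Sftpa1 and Scgb3a2 at 0. None of 10 macrophage genes was called. Their summed level was 302, 380, 242 and 368 CPM in HCN4F-TAC replicates 1 to 4, where the hearts with the most Cd79a were also highest, 257 to 333 CPM in HCN4F-Sham and 240 to 295 CPM in the WT hearts. Between HCN4F and WT after TAC, 9 of the 10 had a positive log2 fold change, with a median of 0.47. The part of macrophages, lymph node, atrial or other tissue in the Cd79a values was not tested.

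**Figure D5:**
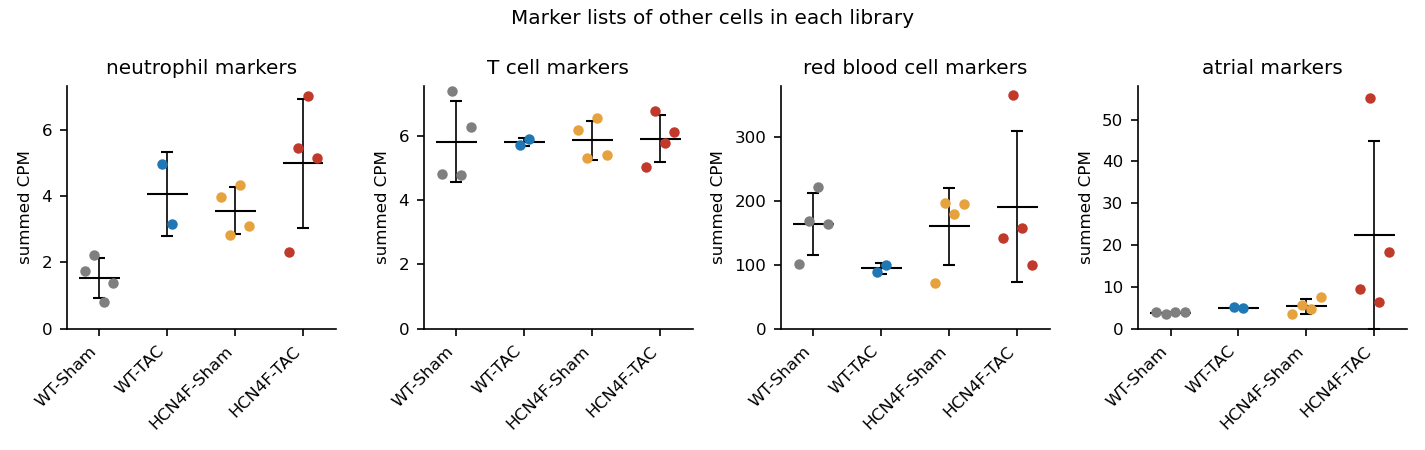
Summed CPM of the neutrophil, T cell, red blood cell and atrial marker lists by group (linear vertical axes from 0), with 1 point for each library and the mean and SD as bars. The neutrophil list was lowest in WT-Sham, at 0.803 to 2.21 CPM, and the atrial list was highest in HCN4F-TAC replicate 2, at 55.3 CPM.

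Outside the immunoglobulin genes, the tested genes whose log2 CPM followed Igkc most closely over the 14 libraries included Efs (Pearson correlation 0.914), Cd300a (0.897), Fgr (0.886) and Alx4 (0.880). For Cd79a the 5 closest were Arpc5 (0.921), Gdf6 (0.912), Col8a2 (0.909), Thbs3 (0.907) and Ptpn1 (0.906). Col8a2 had a mean of 0.612 CPM in HCN4F-Sham and 3.96 CPM in HCN4F-TAC. The most similar of 15292 genes were picked, over libraries that share their groups and scaling, so these values describe likeness of pattern only.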

How the data were processed

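Left ventricular RNA from 14 libraries of 4 groups was analysed. Per the labels, the RNA was extracted from frozen tissue, selected for poly(A) and mapped to GRCm38. The authors deposited raw read counts per gene. The aligner, counter, annotation and strand setting are not given in the sources used here. Of the table, 2 columns of per-sample values matched no sample and were not used. Gene positions were taken from GENCODE M21, which held 49056 of the gene IDs (99.47%).

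Counts were analysed with edgeR 4.0.16 (R 4.3.3), with TMM scaling, filterByExpr and robust glmQLFit, and all 14 libraries were fitted at once with a mean per group. The filter asked for about 0.361 CPM in enough libraries, and the 7 tested members passed it without the HCN4F-TAC libraries too. glmQLFTest p-values were adjusted by Benjamini and Hochberg over 15292 genes. A gene was called at an adjusted p under 0.05 and a log2 fold change beyond 1, and an interaction at the adjusted p alone. The study's tool, DESeq2 (1.42.0 here), served as an alternative, beside other scaling, filters, sample choices, a replicate block and leaving out each library. The script was tested on simulated counts. Levels are CPM without a pseudocount, and correlations used log2 CPM with a prior count of 2. Library totals were 22309914 to 35210939. With TMM scaling of the counts on tested genes, 3 counts equal 0.0859 to 0.137 CPM.

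All 8 members were named, as were all genes of the fixed lists that were called, the 3 most counted variable segments of each chain and the 5 genes most like Igkc and Cd79a. Some genes that this rule names are not reported here. Members and lists were chosen with earlier results of these data known. In 19 pairs of libraries of the same group the counts differed by more than sampling noise (chi-square per degree of freedom 6.59 to 66.0). The p-values measure the spread between these samples, each described by the study as a biological replicate.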

Additional observations from a re-analysis of the deposited data

Results flagged for a closer look

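Of 36 sets of values from groups of 4 hearts that were examined, 1 held a heart far from the others. The summed lambda variable segments (Iglv) of HCN4F-Sham replicate 2 stood at 0.593 CPM, against 0.151 to 0.211 CPM in the other 3 HCN4F-Sham hearts. The gap was 0.863 of the group's range. It rests on 13 counts, all on a single segment, Iglv1. Chance alone would set a heart apart in about 1 in 20 such groups, and the same heart also had the highest Igha, Igkc and Jchain of its group.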

How the results depend on the processing

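Of 738 fold changes of single members under alternatives that gave an adjusted p, 692 kept their direction and side of the threshold, 12 lost the call, 11 gained one and 23 changed sign, none of them called. After TAC in WT, 1 member (Igha) was called, and 0 without the filter, 0 with the replicate block, 2 by DESeq2 or edgeR on the compared groups alone (with Igkc), and 0 to 1 when 1 library was left out. Igha was lost without any of WT-Sham replicates 1 to 4, WT-TAC replicates 2 and 3, HCN4F-Sham replicates 1 and 3 or HCN4F-TAC replicates 1 and 4. After TAC in HCN4F the count was 1, and 0 when a mean of 1 CPM was required, which left Cd79a untested. Between genotypes in Sham it was 0, and 3 by DESeq2 on all or on the compared groups, 2 by edgeR on the compared groups, 1 without robust estimation and 0 when any library was left out. The other counts stayed at 0.

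Among members that were not called, Ighm turned to -0.0085 after TAC in WT under the replicate block and to -0.003 in the interaction without the filter. Leaving out 1 library moved the log2 fold change after TAC in WT from -0.61 to 0.59 for Ighm, from -0.27 to 2.29 for Jchain (negative without WT-TAC replicate 3), from -0.77 to 0.13 for Mzb1 and from -0.77 to 0.20 for Cd79b. In Sham hearts the range between genotypes was -0.18 to 0.40 for Cd79a and -0.21 to 0.11 for Cd79b. After TAC it was -0.14 to 1.73 for Igha and -0.43 to 0.47 for Mzb1. In the interaction it was -0.43 to 0.77 for Ighm, -1.80 to 0.76 for Jchain and -0.55 to 0.35 for Mzb1. The cause of these changes was not tested.

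Where a fit kept 1 WT-TAC library, that heart was assumed to vary like the other groups. Replicate numbers are shared between groups, but of 18 same-numbered pairs only 2 correlated above 0.1 (range -0.12 to 0.16). Low correlations over all tested genes cannot exclude a pairing by number. The main fit has no block, and the block is given as an alternative. WT-TAC had 2 hearts, and Cd79a and Cd79b had 6 to 57 counts a library.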
